A study of Mus musculus with 7 samples.

Results

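The EGF family ligands are the secreted and membrane-anchored growth factors that bind the EGF receptor and its ERBB relatives. The 9 genes AREG, EREG, EPGN, BTC, HBEGF, TGFA, EGF, NRG1 and NRG2, written from here on as mouse symbols (Areg, Ereg and so on), were taken by symbol from an expression table of 24908 gene symbols. All 9 had 1 entry each, and 6 of them were among the 11735 genes that were expressed highly enough to be tested. RNA had been sequenced from Pdgfra-low CD81+ cells, a stromal population of the mouse intestinal mesenchyme that lies beneath the crypts and supplies growth factors to epithelial stem cells. There were 3 groups: wildtype controls (3 libraries), and Apc knockouts at 4 days (2 libraries) and at 6 days (2 libraries) from the inactivation of Apc. Inactivation was targeted to epithelial cells, with Apcflox/flox alleles and Villin-CreERT2, an inducible Cre under the promoter of an epithelial gene, so the sorted stromal cells are not its target. Whether the wildtype mice carried the driver or received the inducer, the age of the mice and whether animals were pooled are not given in the sources used here. Values are FPKM, which scale fragment numbers by transcript length and by library size, so levels can be set side by side between genes.

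EGF family ligands are made as membrane-anchored precursors and are cut loose by ADAM proteases. Areg, Epgn, Tgfa and Egf bind the EGF receptor (Egfr), Btc, Hbegf and Ereg bind Egfr and Erbb4, and the neuregulins Nrg1 and Nrg2 bind Erbb3 and Erbb4. Bound receptors pair, often with Erbb2, and signal through RAS and ERK. In the intestine, Egfr signalling drives proliferation of crypt stem and progenitor cells, and stromal cells are a known source of several of its ligands.

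Libraries were grouped by the day in their column names into 2 sets, called harvest sets here. The day 4 set holds 1 control and the day 4 knockouts, and the day 6 set the remaining libraries. No label states that the libraries of a set were harvested or processed together. One knockout column carries no day, and it was taken as day 6 replicate 2 by elimination. The sort marker Cd81 was 32.4 FPKM in day 4 knockout replicate 2 and 94.8 to 169 FPKM in the other 6 libraries, and Pdgfra was 54.3 to 134 FPKM. The housekeeping gene Gapdh also differed by set, with 193 to 277 FPKM in day 4 set libraries and 66.5 to 91.4 FPKM in day 6 set libraries. Markers of macrophages and dendritic cells (10 genes) summed to 19.9 FPKM in day 4 knockout replicate 2, 334 FPKM in day 4 knockout replicate 1, 108 to 176 FPKM in controls and 160 to 298 FPKM at day 6. The 2 day 4 knockouts stood at opposite ends of the 7 libraries in these markers.

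Epgn, Ereg, Areg and Btc lie next to each other on mouse chromosome 5, in that order, with no other protein-coding gene between them in RefSeq. Windows from the RefSeq promoter table (GRCm38.p6) were taken for 5 of the 9 ligands: Areg, Epgn, Btc, Egf and Tgfa. Ereg, the remaining member of the cluster, had no window among them. Areg and Epgn rose together at day 4, while their neighbour Btc did not pass the test. The 250 bases before the transcription start of these 3 genes are therefore shown. They lie at chr5:91139349-91139598 on the plus strand for Areg, chr5:91027267-91027516 on the plus strand for Epgn and chr5:91402995-91403244 on the minus strand for Btc. Capitals mark matches, on either strand, to the 7 motifs searched.
Areg: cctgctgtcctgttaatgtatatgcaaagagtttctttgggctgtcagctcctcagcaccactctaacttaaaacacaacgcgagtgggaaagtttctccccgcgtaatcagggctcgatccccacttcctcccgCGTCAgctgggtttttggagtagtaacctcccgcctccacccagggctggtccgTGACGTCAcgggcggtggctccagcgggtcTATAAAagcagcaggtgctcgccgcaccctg
Epgn: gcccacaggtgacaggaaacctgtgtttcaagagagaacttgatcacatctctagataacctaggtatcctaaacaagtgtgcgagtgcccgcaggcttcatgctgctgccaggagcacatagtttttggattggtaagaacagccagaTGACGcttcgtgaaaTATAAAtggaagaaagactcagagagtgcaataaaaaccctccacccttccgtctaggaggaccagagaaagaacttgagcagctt
Btc: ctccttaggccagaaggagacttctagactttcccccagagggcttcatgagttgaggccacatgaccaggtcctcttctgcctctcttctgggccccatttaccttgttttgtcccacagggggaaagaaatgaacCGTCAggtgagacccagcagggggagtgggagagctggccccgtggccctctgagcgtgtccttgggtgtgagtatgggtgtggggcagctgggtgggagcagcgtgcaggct
The motifs were the cAMP response element TGACGTCA and its core TGACG, the AP-1 site TGANTCA, the TEAD site GGAATG, the TCF/LEF site CTTTGNT, the NF-kB site GGGNNTTCC and the TATA box TATAAA. The Areg window held a full cAMP response element 61 to 54 bases before the start, which contains the core on both strands, another core match 115 bases before it, and a TATA box 31 to 26 bases before it. The Epgn window held 1 core match (101 bases before the start) and 1 TATA box (86 bases before it), and the Btc window held 1 core match on the other strand (113 bases before it). Of 32851 RefSeq windows of this length, 1.55% held the full cAMP response element, 17.8% its core and 12.4% the TATA box. The letters of the AP-1, TEAD, TCF/LEF and NF-kB motifs were in none of the 3 windows shown, against 6.75%, 12.6%, 16.0% and 4.98% of all windows.

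Ereg was by far the most abundant ligand of these cells, in wildtype and knockout alike. Epiregulin, its product, is a soluble activator of Egfr and Erbb4. In the controls Ereg was at 196 FPKM in the day 4 set control and at 222 and 159 FPKM in those of the day 6 set, which made it between the 249th and the 366th most abundant of all symbols. It supplied 85.8% ± 2.63 (SD, n = 3) of the summed FPKM of the 9 ligands in controls. Areg (11.7 ± 3.36 FPKM) and Hbegf (8.71 ± 4.51 FPKM) came next in wildtype cells, followed by Btc (4.57 ± 1.20 FPKM) and Nrg1 (4.36 ± 2.42 FPKM). The spreads of these 4 overlap their neighbours in that order. Epgn was at 1.22 ± 0.421 FPKM and Nrg2 at 1.01 ± 0.579 FPKM, Egf was at 0.203 ± 0.0946 FPKM, and Tgfa was listed at 0 in all 3 controls.

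**Figure D1:**
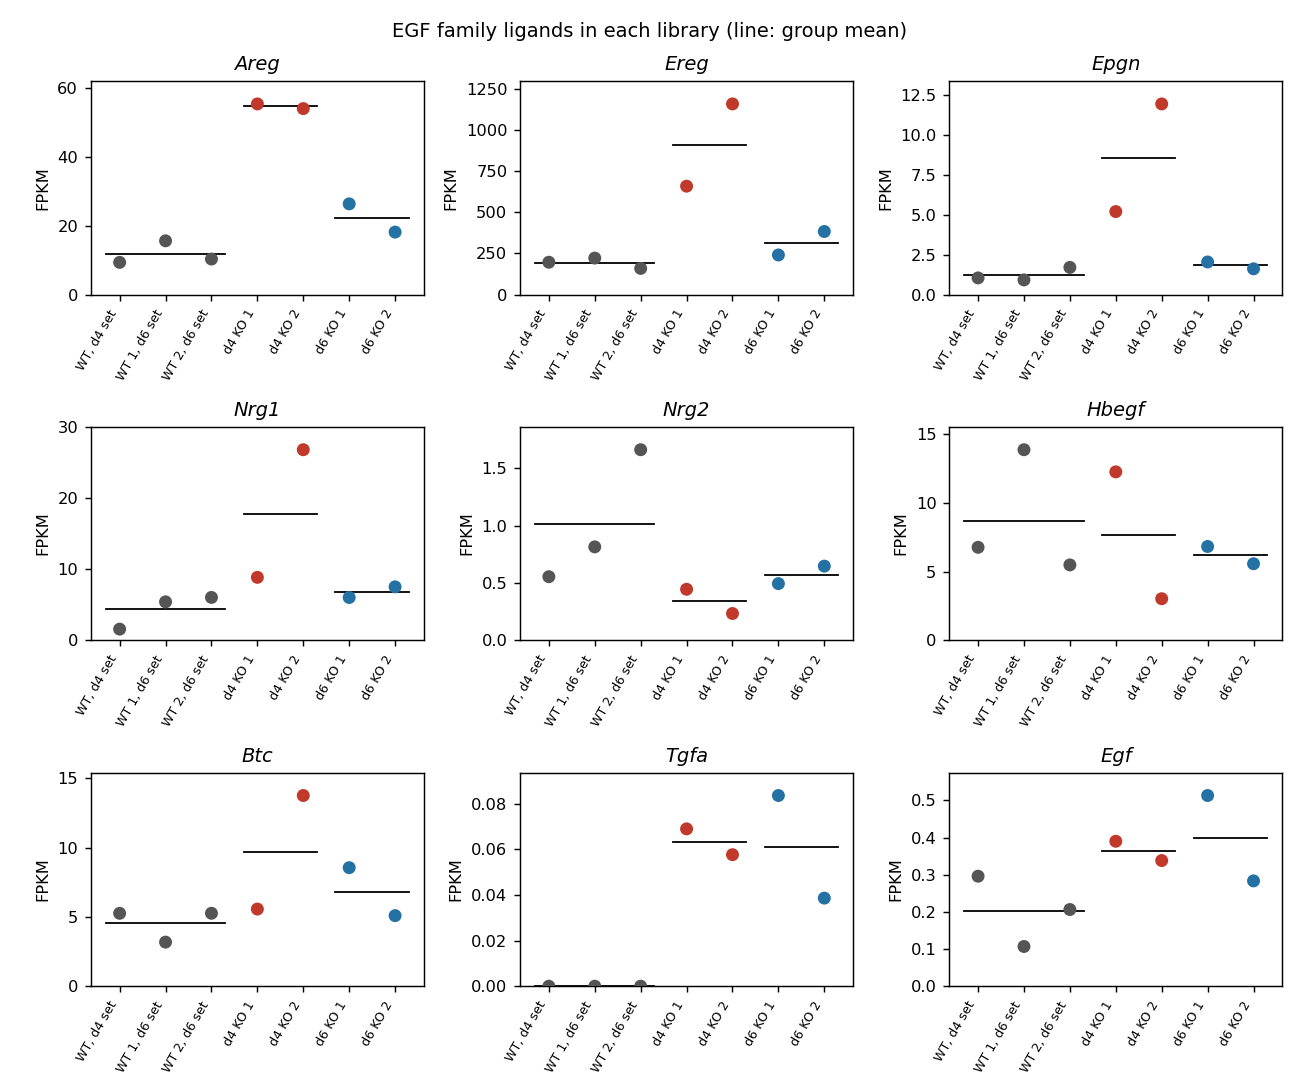
FPKM of the 9 ligands in the 7 libraries (grey, wildtype; red, day 4 knockout; blue, day 6 knockout; WT, wildtype; KO, knockout; d4 and d6, day 4 and day 6), each panel on its own linear axis from 0, with a line at each group mean. Both day 4 libraries lie above the other 5 for Areg, Ereg, Epgn and Nrg1, and Ereg reaches 1157 FPKM.

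At day 4 Areg, Ereg and Epgn rose, while Nrg1, Btc and Hbegf did not pass the test. By limma over all tested genes, 3 of the 6 tested ligands were higher and 0 lower at an adjusted p under 0.05, where 0.401% of all 11735 genes were called higher and 0.622% lower (1.02% in either direction). Before adjustment 4 of 6 ligands were under 0.05, as were 18.6% of all genes. The median log2 change of the 6 ligands was 1.89, beside -0.06 over all tested genes. In bulk RNA from sorted cells, more cells that express a gene and more RNA per cell cannot be told apart.

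Areg encodes amphiregulin, an Egfr ligand made by stromal and immune cells during epithelial repair. Its controls were at 9.35 FPKM (day 4 set), 15.6 and 10.3 FPKM (day 6 set), and the day 4 knockouts at 55.3 and 53.9 FPKM. The groups did not overlap, and the 2 day 4 libraries were nearly equal. The mean was 4.65-fold that of the controls, and the log2 change of FPKM + 1 was 2.16 ± 0.25 (SE, adjusted p = 0.0274). By p, Areg was the 10th of 11735 genes in this comparison.

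Ereg was at 658 and 1157 FPKM in the day 4 knockouts, against 159 to 222 FPKM in the controls. Both day 4 libraries were above every control, and replicate 2 was the higher of them. The mean was 4.72-fold that of the controls and the log2 change 2.19 ± 0.32 (adjusted p = 0.0373). At these levels Ereg was the 68th and the 32nd most abundant symbol of its library.

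Epgn encodes epigen, a broadly acting Egfr ligand of low affinity. It was at 5.20 and 11.9 FPKM in the day 4 knockouts, against 1.04, 0.919 and 1.70 FPKM in the controls. The groups did not overlap, and replicate 2 was again the higher. The mean was 7.01-fold that of the controls, and the log2 change, which the added pseudocount of 1 shrinks for a gene this low, was 2.03 ± 0.32 (adjusted p = 0.0441).

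**Figure D2:**
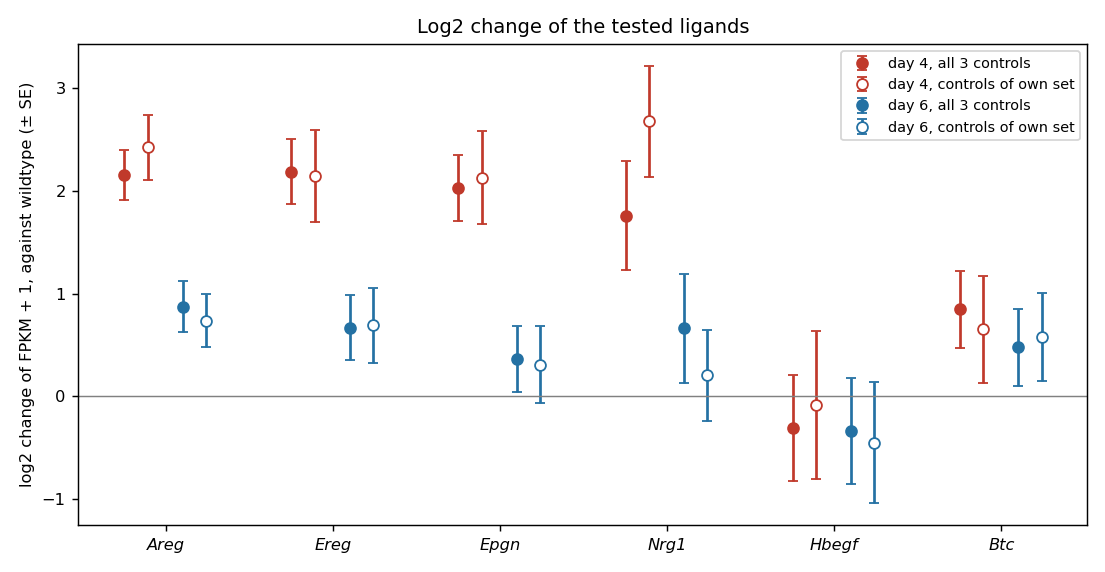
Log2 change of FPKM + 1 against wildtype (± SE from limma) of the 6 tested ligands at day 4 (red) and day 6 (blue), against all 3 controls (filled) and against the controls of the same harvest set only (open). Areg, Ereg and Epgn stand between 2.03 and 2.43 at day 4 by either choice of controls, and Nrg1 moves from 1.76 to 2.68.

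These calls rested on particular libraries. Without day 4 knockout replicate 2 the log2 changes were 2.17 for Areg (adjusted p = 0.0984), 1.78 for Ereg (0.112) and 1.50 for Epgn (0.112), and without the second day 6 set control they were 2.08 (0.127), 2.06 (0.140) and 2.18 (0.127). Without the first day 6 set control only Areg passed (adjusted p = 0.0377, beside 0.112 for Ereg and 0.132 for Epgn), and without either day 6 knockout Epgn did not (0.0606 and 0.0610). Replicate 1 alone was 4.70-fold the mean of the controls for Areg, 3.42-fold for Ereg and 4.25-fold for Epgn, and replicate 2 alone 4.59-fold, 6.01-fold and 9.76-fold. Against the 1 control of their own harvest set, Areg was at 2.43 ± 0.31 (adjusted p = 0.0939), Ereg at 2.15 ± 0.45 (0.290) and Epgn at 2.13 ± 0.46 (0.297).

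**Figure D3:**
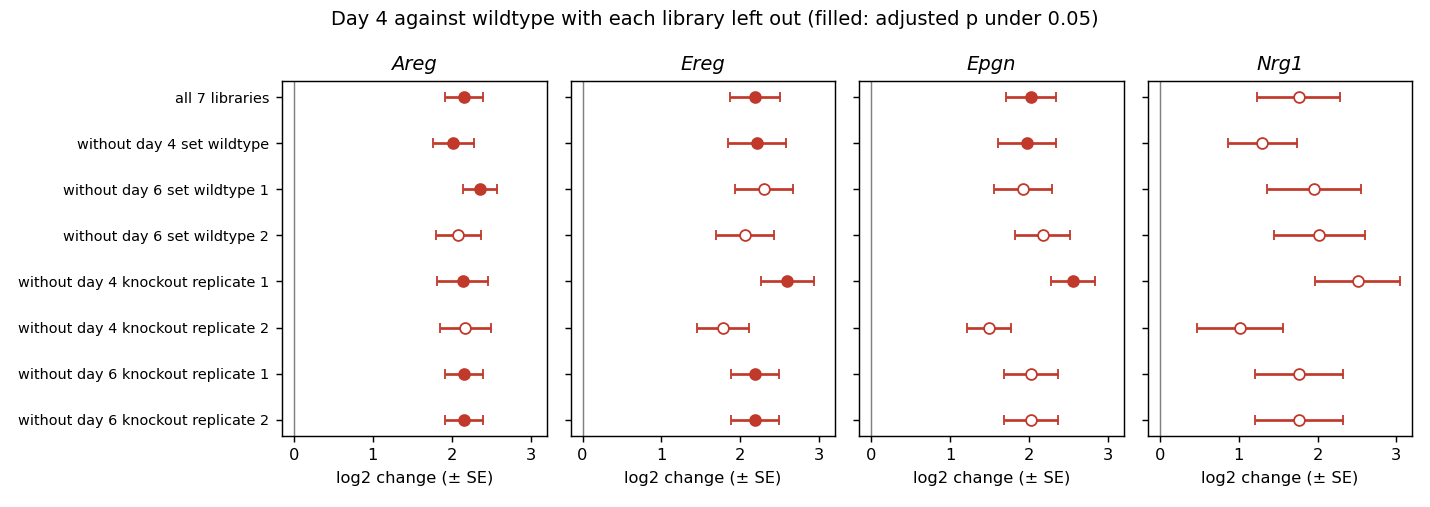
Log2 change at day 4 against wildtype (± SE) for Areg, Ereg, Epgn and Nrg1, with all 7 libraries and with each library left out in turn; filled points have an adjusted p under 0.05. Areg stays between 2.02 and 2.36, and Nrg1 spreads from 1.01 to 2.51.

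Nrg1 encodes neuregulin 1, which binds Erbb3 and Erbb4 and supports crypt regeneration. It was at 8.89 and 26.9 FPKM in the day 4 knockouts, at 1.59 FPKM in the day 4 set control and at 5.43 and 6.06 FPKM in those of the day 6 set. Both day 4 libraries were above all controls, but the 2 libraries differed widely and the controls themselves differed by set. The log2 change was 1.76 ± 0.53 and missed the threshold (adjusted p = 0.151). Within the day 4 set the 2 knockouts were 5.58 and 16.9 times the control, a log2 change of 2.68 ± 0.54 (adjusted p = 0.277). Without day 4 knockout replicate 2 the log2 change was 1.01 (adjusted p = 0.411). RefSeq lists 43 Nrg1 transcripts, which the table's single entry does not separate.

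Btc, which encodes betacellulin, was at 5.57 and 13.8 FPKM at day 4, against 5.26, 3.18 and 5.26 FPKM in controls. Replicate 1 was barely above the highest control. The log2 change was 0.85 ± 0.38 (adjusted p = 0.280), and 0.26 without replicate 2. Hbegf, which encodes heparin-binding EGF, was at 12.3 and 3.03 FPKM at day 4, so that 1 library was among the highest and the other the lowest of the 7. Its controls spread as widely, at 6.77, 13.9 and 5.49 FPKM, and its log2 change was -0.31 ± 0.52 (adjusted p = 0.801).

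For 5 of the 6 tested ligands, all but Hbegf, both day 4 libraries lay above all 3 controls, which 12.5% of all tested genes did. None of the 6 had both day 4 libraries below all controls, which 22% of genes did. For 4 of them (Areg, Ereg, Epgn and Nrg1) they also lay above both day 6 libraries, which 6.63% of genes did. The summed FPKM of all 9 ligands was 746 and 1267 in the day 4 knockouts, against 190 to 262 in controls. Ereg supplied 88.2% and 91.3% of these sums. Without Ereg the sum was 88.1 and 110 FPKM at day 4, against 24.9 to 39.9 FPKM in controls, so the other ligands together also stood higher in both day 4 libraries.

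The remaining 3 ligands were near or under the filter of 1 FPKM in at least 2 libraries and were not tested. Nrg2, another neuregulin, was at 0.555, 0.815 and 1.66 FPKM in controls, at 0.446 and 0.234 FPKM at day 4 and at 0.495 and 0.647 FPKM at day 6. Its knockout libraries all lay below the mean of the controls, which the control at 1.66 FPKM raised, and 3 of 4 lay below every control. Egf, the founding ligand, was at 0.296, 0.107 and 0.206 FPKM in controls, at 0.390 and 0.338 FPKM at day 4 and at 0.513 and 0.283 FPKM at day 6. For Egf 3 of 4 knockouts lay above every control. The share of all genes with 3 of 4 knockouts outside the controls was not counted. Tgfa was listed at 0 in the 3 controls and at 0.0689 and 0.0576 FPKM at day 4 and 0.0835 and 0.0386 FPKM at day 6. No fold is given for it. Depth was estimated roughly from the most frequent ratio of FPKM values under 0.2 between 2 libraries. By this estimate both day 6 knockouts were sequenced 1.60 times as deeply as the first day 6 set control. The day 4 knockouts came to 0.747 and 0.824 times their own control. Few genes gave these ratios, 42 of 1280 and 48 of 1261 at day 6 and 147 of 2017 and 79 of 2003 at day 4. The part of depth in the Tgfa values was not tested.

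At day 6 no ligand passed the test. By limma 0 of 6 tested ligands were called in either direction, where 0.0426% of all genes were called. Before adjustment 1 of 6, Areg, was under 0.05, as were 7.26% of all genes. The median log2 change of the 6 ligands was 0.57, beside -0.01 over all tested genes. Areg was at 26.3 and 18.1 FPKM at day 6, above all 3 controls and below both day 4 libraries, with a log2 change against wildtype of 0.87 ± 0.25 (adjusted p = 0.575). Ereg was at 241 and 383 FPKM (0.67 ± 0.32, adjusted p = 0.720), which also lay above all controls. Day 6 libraries lay above all controls for these 2 of 6 tested ligands, and for 13.9% of all tested genes. None lay below all controls, where 11.9% of genes did.

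Epgn at day 6 was at 2.04 and 1.62 FPKM, and the second of these lay under the highest control. Nrg1 was at 6.04 and 7.55 FPKM, close to the day 6 set controls (5.43 and 6.06 FPKM). Its log2 change was 0.66 ± 0.53 against all controls and 0.20 ± 0.44 against those of its own set. Btc was at 8.56 and 5.09 FPKM (0.48 ± 0.38) and Hbegf at 6.83 and 5.58 FPKM (-0.34 ± 0.52). The sum of the 9 ligands was 291 and 422 FPKM at day 6, both above the controls and both below the day 4 libraries.

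The direct comparison of the 2 knockout groups takes no control level, though its errors come from the spread in all 3 groups. It gave lower values at day 6 than at day 4 for all 6 tested ligands, though Hbegf was nearly unchanged. Of all tested genes, 56.5% stood higher at day 6 than at day 4. By limma 0 of 6 ligands passed, where 0% of all genes were called. At an unadjusted p under 0.05, where 11.5% of all genes were, there were 3 ligands: Areg (log2 change from day 4 to day 6 of -1.28 ± 0.27, adjusted p = 0.257), Ereg (-1.52 ± 0.35, 0.271) and Epgn (-1.67 ± 0.35, 0.257). Nrg1 stood at -1.10 ± 0.58 (adjusted p = 0.520), Btc at -0.37 ± 0.41 (0.802) and Hbegf at -0.03 ± 0.57 (0.992). Both day 4 libraries lay above both day 6 libraries for 4 of 6 ligands, and for 15.3% of all genes. Day and harvest set coincide for the knockouts, so they cannot be told apart in this comparison.

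With both days averaged, 0 of 6 ligands passed by limma, where 0.162% of all genes were called. An unadjusted p under 0.05 was found for 4 of 6, and for 13.8% of all genes. Areg came nearest, with a log2 change of 1.51 ± 0.21 (adjusted p = 0.0527), followed by Ereg at 1.43 ± 0.27 (0.0876), Epgn at 1.19 ± 0.27 (0.121) and Nrg1 at 1.21 ± 0.44 (0.286). With controls of the same harvest set Areg passed, at 1.58 ± 0.20 (adjusted p = 0.0474). Areg and Ereg, 2 of 6 tested ligands, had no overlap between the 4 knockouts and the lower-lying 3 controls, as had 5.32% of all tested genes. None of the 6 had all knockouts below all controls, which 6.58% of genes had. The comparisons of day 4, day 6 and both days with wildtype share their 3 controls.

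The 3 ligands that rose at day 4 are neighbours, and the protein-coding genes around the cluster did not pass the test. On one side lie Mthfd2l, a mitochondrial folate enzyme, and the neutrophil-attracting chemokines Cxcl2 and Cxcl1. Mthfd2l was at 3.02 to 4.66 FPKM in controls and 3.02 and 5.24 FPKM at day 4 (log2 change 0.13 ± 0.25, adjusted p = 0.837). Cxcl1, at 824 to 1680 FPKM in controls, was at 1286 and 803 FPKM at day 4 (-0.27 ± 0.40, adjusted p = 0.774), and Cxcl2 stood at -0.09 ± 0.37 (0.930). Beyond Btc on the other side, Parm1 was at 3.49 to 6.88 FPKM in controls and 1.83 and 2.16 FPKM at day 4 (-0.94 ± 0.49, adjusted p = 0.347), and the ubiquitin ligase Rchy1 stood at 0.42 ± 0.23 (0.377). Odaph, next after Rchy1, was at most 0.0407 FPKM and was not tested. The cluster's own members thus ranged from 2.19 for Ereg to 0.85 for Btc, and the 5 tested neighbours from -0.94 to 0.42. The differences between genes were not tested.

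**Figure D4:**
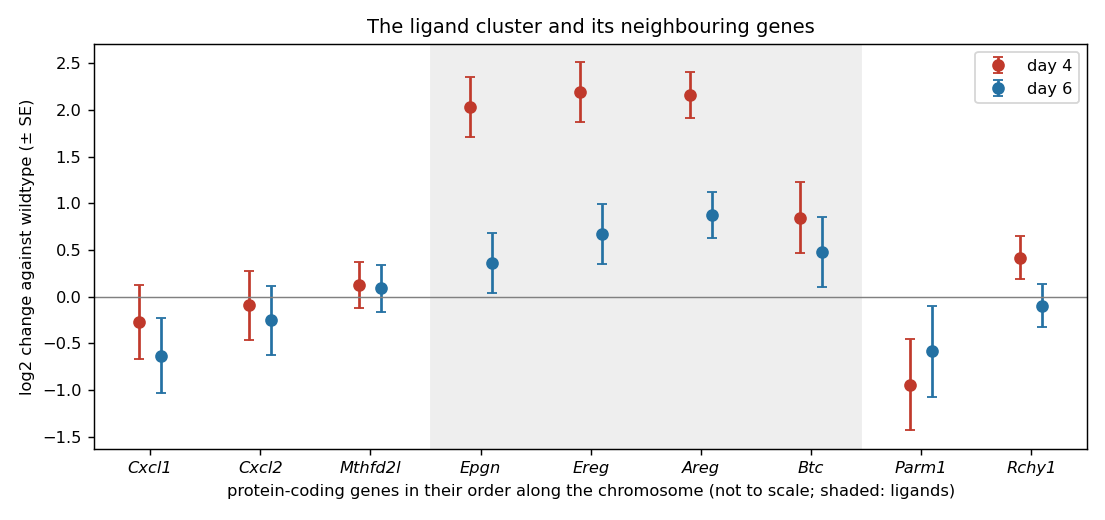
Log2 change of FPKM + 1 against wildtype (± SE) at day 4 (red) and day 6 (blue) for the 4 ligands of the chromosome 5 cluster (shaded) and the tested protein-coding genes beside them, in RefSeq order and not to scale. Epgn, Ereg and Areg stand above 2 at day 4, and the tested neighbours stand between -0.94 and 0.42.

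The receptors were present in part. Egfr was at 32.1 FPKM in the day 4 set control, at 46.6 and 42.5 FPKM in those of the day 6 set, at 33.1 and 35.0 FPKM at day 4 and at 83.7 and 49.4 FPKM at day 6. Its level followed the set in controls, and the log2 change was -0.23 at day 4 (adjusted p = 0.692) and 0.68 at day 6 (adjusted p = 0.639). Erbb2, the partner receptor without a ligand of its own, was at 5.61 to 8.79 FPKM over the 7 libraries, with no call. Erbb3 was at most 0.273 FPKM, and Erbb4 was listed at 0 in every library, as was the neuregulin Nrg3. Nrg4 was at most 0.257 FPKM. The sorted cells thus held mRNA of Egfr and Erbb2, with the neuregulin receptors Erbb3 and Erbb4 near or at 0.

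Among the other pathway genes, none of those tested passed over all genes in any of the 4 comparisons. The lists were 14 tested genes of ligand shedding and trafficking, 17 feedback inhibitors, 19 members of the RAS-ERK cascade, 15 ERK target genes and 11 of the prostaglandin E2 pathway, and at day 4 the number at an unadjusted p under 0.05 was 7, 1, 2, 3 and 3 in that order, where 18.6% of all tested genes were. Their median log2 changes at day 4 were -0.27, 0.00, -0.17, 0.06 and -0.05 in that order, beside -0.06 over all tested genes.

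Of the shedding genes, Adam17, the main protease that releases Areg and Ereg, was at 19.6 to 23.8 FPKM in controls and at 16.2 and 15.8 FPKM at day 4 (log2 change -0.37, adjusted p = 0.255). Adam9 was at 35.5 to 39.6 FPKM in controls and at 52.2 to 66.4 FPKM in all 4 knockouts, a log2 change with both days averaged of 0.64 (adjusted p = 0.119). The protease Bace2 was at 5.41 to 9.79 FPKM in controls and 1.35 to 4.62 FPKM in the knockouts (-1.04 with both days averaged, adjusted p = 0.161). For these 2 genes neither knockout group overlapped the controls. Over all tested genes, 5.32% had all knockouts above all controls and 6.58% had all knockouts below them. Rhbdf2, which encodes the iRhom2 protein that carries ADAM17 to the cell surface, was at 6.16 to 10.4 FPKM in controls and 11.2 and 19.9 FPKM at day 4 (0.77, adjusted p = 0.243).

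Genes that report on ERK signalling in the sorted cells themselves gave no call. Fos was at 3469 to 4152 FPKM in controls and 3584 to 4210 FPKM in the knockouts, and Egr1 at 3578 to 3964 FPKM and 3572 to 4070 FPKM, so these immediate early genes were already very high in every library. Dusp6, a phosphatase induced by ERK, was at 23.7 to 42.7 FPKM in controls and 33.8 and 50.2 FPKM at day 4 (log2 change 0.45, adjusted p = 0.480). Etv5, an ERK-induced transcription factor, stood at 0.39 with both days averaged (adjusted p = 0.326), and the cyclin Ccnd1 at -0.56 (adjusted p = 0.216). Etv4, a relative of Etv5 that was too low to test and is named here after its values were seen, was at 0.0430 to 0.230 FPKM in controls and 0.620 to 1.24 FPKM in the knockouts. Among the genes that were tested, 5.32% also had all knockouts above all controls. Of the feedback inhibitors the ubiquitin ligase Cblb stood at 0.39 with both days averaged (adjusted p = 0.332) and the phosphatase Ptpn1 at 0.36 (0.342). In the cascade the adaptor Gab1 stood at -0.50 (0.157) and the kinase Map2k1 at 0.25 (0.461).

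Prostaglandin E2, a lipid signal made by Ptgs2 and cleared by Hpgd, is known to induce Areg through cAMP. Ptgs2 was at 108 FPKM in the day 4 set control and at 325 and 116 FPKM in those of the day 6 set, against 251 and 198 FPKM at day 4 and 150 and 139 FPKM at day 6. The first day 6 set control was the highest, and the groups overlapped (log2 change at day 4 0.48, adjusted p = 0.617). Hpgd was at 116 to 155 FPKM in controls and at 138 and 122 FPKM at day 6, within them. At day 4 it was at 80.7 and 59.6 FPKM, below every control, as were both day 4 libraries for 22% of all tested genes (log2 change -1.0, adjusted p = 0.0759). Of the receptors, Ptger4 was at 21.2 to 27.2 FPKM in controls and 15.5 and 23.0 FPKM at day 4 (-0.28, adjusted p = 0.559), and Ptger1 stood at -0.99 (0.181).

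**Figure D5:**
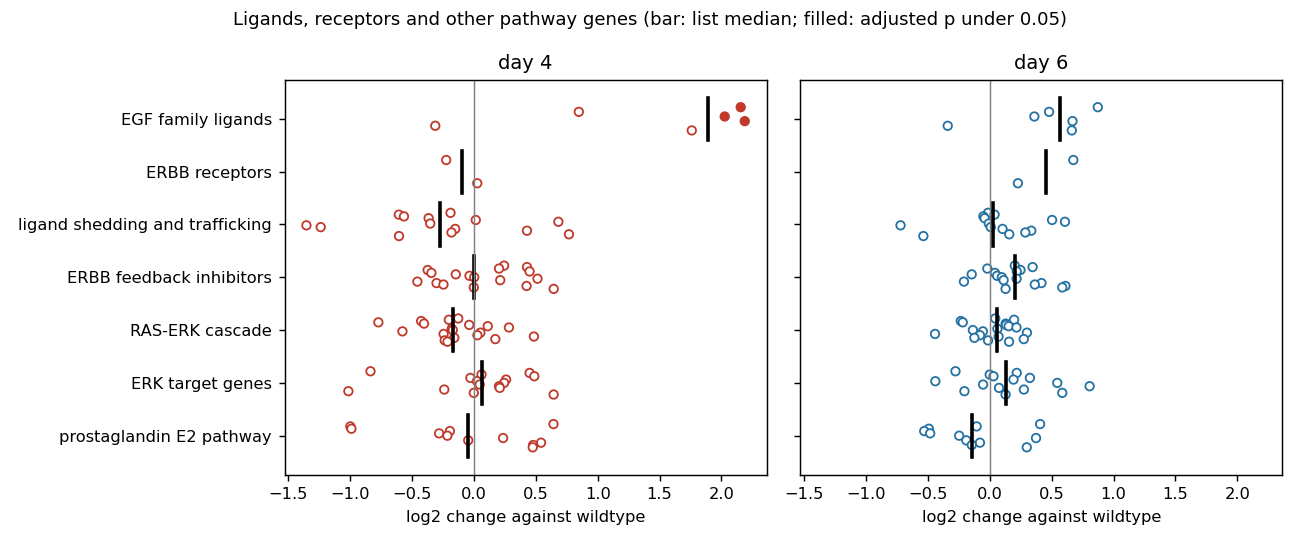
Log2 change against wildtype of every tested gene in the ligand, receptor and pathway lists at day 4 (left) and day 6 (right); bars are list medians and filled points have an adjusted p under 0.05. The only filled points are Areg, Ereg and Epgn at day 4, where the ligand median is 1.89.

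The genes whose pattern over the 7 libraries was nearest to each ligand were found by the mean absolute difference of centred log2 values. Rgs2, a regulator of G protein signalling, was nearest to Ereg (0.16) and to Epgn (0.24) and also among the 3 nearest to Areg (0.28). It was at 11.9 to 14.5 FPKM in controls, 62.8 and 90.6 FPKM at day 4 and 20.5 and 22.9 FPKM at day 6, with a log2 change at day 4 of 2.40 ± 0.20. Genes chosen by likeness to the ligands share their day 4 pattern by that choice, so no test is given for them. Sphk1, which makes sphingosine 1-phosphate, was nearest to Areg (0.24), at 24.9 to 47.6 FPKM in controls and 81.5 and 122 FPKM at day 4 (1.64 ± 0.31). Sdc1, a heparan sulphate proteoglycan, was among the 3 nearest to Epgn (0.24) and to Ereg (0.30) (log2 change at day 4 1.50 ± 0.28). By the same measure Ereg and Epgn differed by 0.30, Areg and Ereg by 0.37, and Ereg and Hbegf by 0.99. The sets of 3 were completed by Npw for Areg (0.31), Scgb3a1 for Ereg (0.28) and Fam210b for Epgn (0.27).

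Nrg1 was nearest to Ch25h (0.26), Has2 (0.29) and F2rl3 (0.31). Has2, a hyaluronan synthase, was at 6.46 and 25.1 FPKM at day 4 and 2.87 to 4.78 FPKM in controls, and Ch25h, a cholesterol hydroxylase, at 32.5 and 102 FPKM and at 16.5 to 32.4 FPKM. Like Nrg1, both were far higher in replicate 2 than in replicate 1 of day 4. Btc was nearest to Hrct1 (0.077), Neat1 (0.099) and Cyb5r3 (0.14). Hbegf was nearest to Kcna3 (0.15), Fgl2 (0.15) and Pla2g2d (0.21), and all 3 had their lowest value in day 4 knockout replicate 2, as Hbegf did.

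Markers of other cells were measured beside these ligands. The macrophage and dendritic cell markers (9 of 10 tested, 0 called at day 4) were lowest in day 4 knockout replicate 2, the library with the highest Ereg, Epgn and Nrg1 and the lowest Hbegf. Ptprc, the pan-leukocyte marker, was 0.532 FPKM there and 2.86 to 8.47 FPKM elsewhere. Of 10 mast cell and innate lymphoid markers Mcpt2, Fcer1a and Tpsb2 were at 0 in all libraries. The list summed to 16.0 to 19.9 FPKM in all groups, most of it Rora (12.4 to 17.5 FPKM). Il1rl1, the IL-33 receptor, was at 0.0556 to 0.468 FPKM in controls, 1.46 and 1.11 FPKM at day 4 and 0.725 and 0.636 FPKM at day 6. Every knockout thus lay above every control, as in 5.32% of all tested genes (log2 change at day 4 0.90, adjusted p = 0.107). The list went both ways at day 4. Il7r stood at 0.40 and Rora at -0.27, and the untested Kit and Cpa3 had lower means than in controls (0.342 against 0.498 FPKM and 0.0693 against 0.259 FPKM). B and plasma cell markers (5 genes) differed widely between the day 4 knockouts, summing to 2666 FPKM (replicate 1) and 39.6 FPKM (replicate 2), against 317 to 543 FPKM in controls and 239 to 444 FPKM at day 6. Paneth cell markers summed to 2.78 to 46.7 FPKM in controls, 3.08 and 5.44 FPKM at day 4 and 27.5 and 34.1 FPKM at day 6, and smooth muscle and pericyte markers to 181 to 256, 116 to 209 and 102 to 189 FPKM. The latter sums follow Rgs5, with means of 140, 50.7 and 67.3 FPKM. Of the 7 members tested, 5 stood higher at day 4 and 6 at day 6, where 43.1% and 49.1% of all genes did. Their mean log2 levels overlapped, at 2.64 to 3.82, 2.86 to 3.71 and 3.05 to 3.60. Epithelial markers (10 genes) summed to 2.10 to 3.92 FPKM in controls, 8.11 and 1.70 FPKM in day 4 knockout replicates 1 and 2, and 5.48 to 24.8 FPKM at day 6. The part of these cells in the ligand values was not tested.

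Of 8 markers of the sorted population, 2 fell and 0 rose at day 4, where 0.622% of all genes fell. Cd34 was at 454, 506 and 509 FPKM in controls and 220 and 170 FPKM at day 4 (log2 change -1.33 ± 0.21, adjusted p = 0.0413), and Wnt2b at 22.4, 26.8 and 38.2 FPKM and at 10.5 and 11.3 FPKM (-1.31 ± 0.23, 0.0489). The other 6 passed in neither direction. Among them Pdgfra was at 76.5 and 134 FPKM at day 4, above its controls at 54.3 to 61.3 FPKM (0.78, adjusted p = 0.166), Cd81 stood at -1.24 (0.189) and Ackr4 at 0.35 (0.685). The part of these markers in the ligand values was not tested.

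Telocyte markers, which mark the Pdgfra-high stroma outside this sort gate, had a mean log2 level of 3.23 in day 4 knockout replicate 2, 2.57 in replicate 1 and 2.72 to 2.94 in controls. Ereg, Epgn, Nrg1, Btc and Pdgfra were highest in that same replicate 2. The telocyte markers tested went both ways at day 4, with log2 changes from -0.61 for Wnt4 to 0.93 for Bmp7. Endothelial markers (8 genes, 7 tested, 0 called) summed to 30.2 and 36.0 FPKM at day 4, 26.1 and 26.9 FPKM at day 6 and 16.4 to 25.3 FPKM in controls. Areg and Ereg have the same order of groups as this sum without overlap, and Epgn does not, since a day 6 library lay under a control. By mean log2 level the endothelial markers did overlap, at 1.20 to 1.80 in controls, 1.51 and 1.82 at day 6 and 2.00 and 2.25 at day 4. Tek, at a mean of 10.4 FPKM in controls, went the other way at day 4 (log2 change -0.45), while the other tested members were higher. The share of all genes with this order was not counted. The part of telocyte and endothelial markers in the ligand values was not tested. Dissociation response genes (13 tested, 0 called at day 4) had a mean log2 level of 10.02 to 10.16 in controls, 9.98 and 9.58 at day 4 and 9.89 to 10.06 at day 6. Its members went both ways at day 4, from -1.13 for Fosb to 0.48 for Ier2, and their part in the ligand values was not tested.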

How the data were processed

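FPKM values were deposited by the authors in 1 table with a column per library. The submitters' processing notes name kallisto 0.46.1, DESeq2 1.40.1 and the mm9 build without a role for each, and the step that made the FPKM values is not given in the sources used here. The table holds no read counts, so depth is not known beyond the rough relative estimate above, and no counting interval is given. Controls could not be tied to their numbered titles and are named by harvest set. Nothing states that libraries came from separate animals, so each p-value reflects the spread among these samples, which may be technical.

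Of 25493 entries, repeated symbols (293) kept the one with the highest mean, leaving 24908, of which 24411 matched mouse symbols. Genes that reached 1 FPKM in 2 or more of the 7 libraries were tested as log2(FPKM + 1) with limma 3.58.1 in R 4.3.3. It fitted 1 mean per group, with 4 residual and 3.78 prior degrees of freedom (trended prior), two-sided, with Benjamini-Hochberg adjustment over all tested genes and a threshold of 0.05. The fit was run on simulated data with independent noise and no set difference, with changes planted only in better expressed genes. That run therefore does not bear on set differences or on genes of low expression. A log2 change of FPKM + 1 understates the change of low genes. SE comes from the model and SD from FPKM between libraries. Ligands, lists, motifs and the naming rule (all ligands and receptors, and per pathway list any gene called plus the 2 smallest p with both days averaged, cluster neighbours and the 3 nearest patterns) were chosen with earlier results of these data known. A few further pathway genes (Adam17, Rhbdf2, Fos, Egr1, Dusp6, Etv4, Ptgs2 and Ptger4) were named outside that rule after their values were seen. Promoter windows come from RefSeq, GRCm38.p6.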

Additional observations from a re-analysis of the deposited data

How the results depend on the processing

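Over the alternatives run, Areg, Ereg, Epgn and Nrg1 kept their direction in all 4 comparisons. The count of 3 ligands past the threshold at day 4 became 0 with no filter on low values and 0 with own-set controls (those of the same harvest set), and ranged from 0 to 3 with each library left out. It was 2, without Epgn, with a filter of at least 5 FPKM in 2 libraries (adjusted p = 0.0524) and with only the groups compared (0.0587), and Epgn missed the threshold in 9 of 17 alternatives. With both days averaged the count of 0 became 1 (Areg) with a filter of at least 5 FPKM in 2 libraries, with quantile normalization and with own-set controls, and ranged from 0 to 1 with a library left out. Day 6 and day 6 against day 4 gave 0 ligands under every alternative. With each library left out, Hbegf ranged from -1.17 to 0.55 at day 4, -0.58 to 0.015 at day 6, -0.76 to 0.10 with both days averaged and -0.89 to 0.83 for day 6 against day 4 (0.012 with a pseudocount of 0.1), and Btc from -0.95 to 0.22 for day 6 against day 4. The cause was not tested. Over all genes the count at day 4 was 120, 0 with no filter and 472 without the day 4 set control. At day 6 it was 5 and ranged from 0 to 10, with both days averaged 19 and from 0 to 77, and for day 6 against day 4 it was 0 and up to 83. The replicate block could be fitted only to the knockouts, since control columns carry no number. It gave 0 ligands for day 6 against day 4 (Areg -1.28, adjusted p = 0.158), and same-numbered libraries showed a correlation of deviations of -0.028, so the numbers do not show a pairing. Tgfa, Egf and Nrg2 were outside the main test. With 2 or 3 libraries a group and no counts, the size of difference that could be detected in them was not assessed.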
